A study of Arabidopsis thaliana with 18 samples.

Results

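Apical hooks and cotyledons of pifq seedlings of Arabidopsis thaliana, grown in the dark, were compared by RNA sequencing, with 3 hook libraries set against 3 cotyledon libraries. Genes entered the comparison when at least 3 of these 6 libraries showed at least 1 FPKM (fragments per kilobase of exon, scaled to the depth of the library). Of 26073 entries per library, 17388 genes met this and 8685 did not. All 6 libraries reached 1 FPKM for 15555 genes, while 677 genes passed through the hook libraries alone and 84 through the cotyledon libraries alone. At the limit itself, the third-highest library stood at 1.004 FPKM for PLDBETA2, GH9C3 and AT3G49370, which were kept. It stood at 0.9987 FPKM for AT4G22900, 0.9982 FPKM for AT2G18360 and 0.9974 FPKM for MIR1888a, which were not.

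The apical hook is the bend at the top of the dark-grown hypocotyl that shields the closed cotyledons and the shoot apex as a seedling pushes through soil. Auxin collected on its inner side, ethylene and gibberellin hold the bend closed, and HOOKLESS1 (HLS1) is needed for it. Cotyledons are the seed leaves, which empty their reserves and then build chloroplasts. PHYTOCHROME INTERACTING FACTORS (PIFs) are basic helix-loop-helix transcription factors that keep dark-grown seedlings pale, closed and hooked. Seedlings without PIF1, PIF3, PIF4 and PIF5 open and begin to make photosynthesis transcripts in darkness.

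The groups were pifq hooks, pifq cotyledons, WT hooks and WT cotyledons, with 3 libraries each, and pifq and WT hypocotyls, also 3 libraries each, served as a further reference. The genotype of pifq is given as pif1pif3pif4pif5, lacking all of these genes in the Col-0 background, and WT is Col-0. Every seedling was 4 days old, grown at 22 °C in continuous darkness on MS medium with 3% sucrose. The mutant alleles, the number of seedlings in a library and the places where the organs were cut apart are not given in the sources used here. Nothing in the labels says that replicates came from separate cultures, so p-values measure the spread between these samples, which may be technical. The pieces are mixtures of cell types, and in such bulk samples fewer cells of a type cannot be told apart from less RNA per cell.

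Depth was similar between the organs. Whole-read steps in the low values gave 16806598 to 20543849 reads or read pairs behind the pifq hook libraries and 20051591 to 20460357 behind the pifq cotyledon libraries, so that a single read on 1 kilobase of exon was worth 0.0487 to 0.0595 FPKM and 0.0489 to 0.0499 FPKM in those organs. Chloroplast-encoded entries summed to 463.3 to 642.6 FPKM in pifq hooks and 838.8 to 1262.6 FPKM in pifq cotyledons, against 7522.5 to 9990.5 FPKM in WT hooks and 12602.4 to 18291.7 FPKM in WT cotyledons. Mitochondrion-encoded entries summed to 49 to 141.4 FPKM in these pifq organs, against 3211.2 to 14507.2 FPKM in the same WT organs. In pifq hypocotyl replicates 1, 2 and 3 the chloroplast sums were 2867.2, 4306.8 and 316.2 FPKM, and the mitochondrial sums 2131.5, 4787.9 and 226.2 FPKM. These sums thus also varied widely within a pifq group, and the cause was not tested. With all organelle entries removed, 5906 genes had a larger and 1845 a smaller organ difference in pifq than in WT, against 5835 and 1925 with them.

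Hook replicate 2 stood apart from the other hook libraries. Over 2055 genes chosen in WT libraries alone, as at least 4-fold different between WT hypocotyl and WT cotyledon, the mean of pifq cotyledons was set to 0 and that of pifq hypocotyls to 1. On this scale hook replicates 1, 2 and 3 lay at 0.304, 0.519 and 0.306. The same library correlated with the 3 cotyledon libraries at 0.881 to 0.889 (Pearson's r across genes, which are not independent replicates), against 0.929 to 0.939 for hook replicates 1 and 3. Hook replicate 2 was thus nearer to the hypocotyl than its partners were, and calls of named genes that were lost without it are given as such beside the gene.

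**Figure D1:**
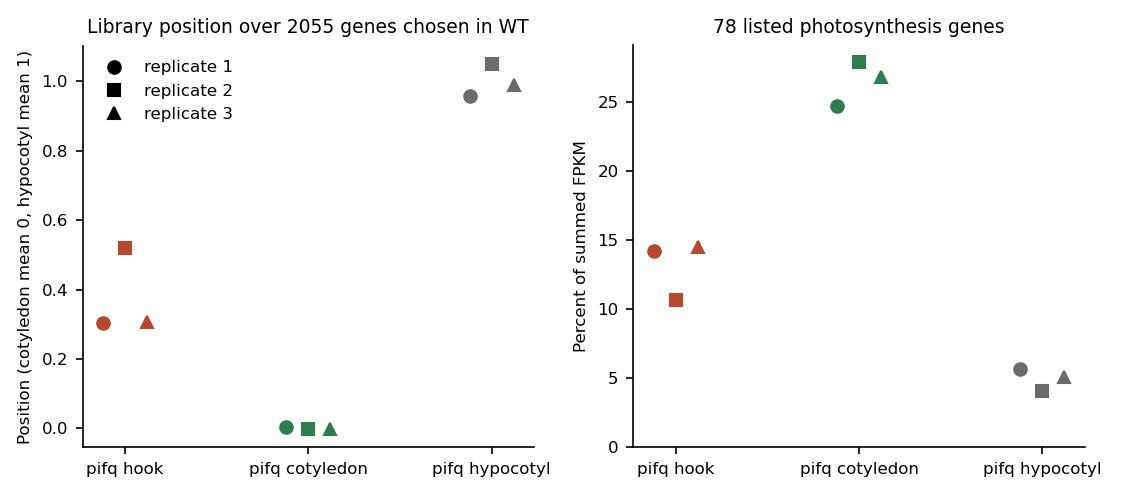
Left, mean position of each pifq library (points, 1 per library, shaped by replicate) over 2055 genes chosen in WT, with the cotyledon mean at 0 and the hypocotyl mean at 1. Right, percent of summed FPKM in the 78 listed genes of photosynthesis. Hook replicate 2 lies at 0.519 on the left and 10.7% on the right, between the other hook libraries and the hypocotyl libraries on each.

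The mutated loci were read first, as a check on the labels. PIF3 gave 1.80 to 2.18 FPKM in pifq hooks and 2.67 to 3.5 FPKM in pifq cotyledons, against 84.3 to 90.8 FPKM in WT hooks and 52.7 to 57.7 FPKM in WT cotyledons. PIF5 gave 3.25 to 4.37 FPKM and 2.92 to 3.74 FPKM in the pifq organs, against 15.5 to 16.1 FPKM and 10.7 to 14.6 FPKM in WT hooks and cotyledons. PIF1 gave 9.19 to 15.4 FPKM in pifq hooks, against 19.3 to 21.2 FPKM in WT hooks, while in cotyledons pifq at 8.17 to 9.34 FPKM lay closer to WT at 9.68 to 11.4 FPKM. PIF4 overlapped between the genotypes, with 13.9 to 18.7 FPKM in pifq hooks and 13.8 to 15.0 FPKM in WT hooks, so its transcript level does not check the genotype. PIF7 and PIF8, family members that pifq keeps, were transcribed. PIF7 gave 12.7, 13.8 and 11.6 FPKM in hook replicates 1, 2 and 3 of pifq, against 8.66, 8.44 and 7.98 FPKM in its cotyledons, and averaged 0.897 ± 0.0546 FPKM in WT hooks and 0.288 ± 0.03 FPKM in WT cotyledons (SD, n = 3). PIF8 gave 15.3, 21.8 and 12.7 FPKM in pifq hooks, against 5, 5.23 and 4.77 FPKM in pifq cotyledons, a log2 difference of 1.52 ± 0.19 (SE, adjusted p = 4.05e-06, limma).

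Most transcripts were higher in the hook as deposited. With limma on log2(FPKM + 1) and Benjamini-Hochberg adjusted p under 0.05, 10038 genes (57.7%) were higher and 2204 (12.7%) lower in pifq hooks than in pifq cotyledons, so that 70.4% were called in either direction and 5146 genes were not. The difference reached 2-fold for 2291 higher genes (13.2%) and for 426 lower genes (2.45%). This split depends on scale, since FPKM are relative to the reads of the whole library, and photosynthesis transcripts held more of them in the cotyledon. The 78 listed genes of photosynthesis held 14.2%, 10.7% and 14.5% of summed FPKM in hook replicates 1, 2 and 3, against 24.7%, 27.9% and 26.8% in cotyledon replicates 1, 2 and 3. Median-ratio factors ran from 1.136 to 1.202 in hooks and from 0.821 to 0.857 in cotyledons. After division by them the difference of a gene shifted by a median of -0.44, the median log2 difference of all tested genes was -0.01 against 0.40 as deposited, and the calls became 4226 higher (24.3%) and 4776 lower (27.5%), or 51.8% in either direction.

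Higher genes made up 82.0% of calls as deposited and 46.9% after scaling, and 99 genes were called in opposite directions. All 4226 genes higher after scaling were also higher as deposited, and all 2204 genes lower as deposited were also lower after scaling. In what follows a gene is said to rise or fall in the hook relative to the cotyledon only where both scales called it the same way, so the background is 24.3% of tested genes rising and 12.7% falling. A gene under 1 FPKM in all libraries of an organ entered through the other organ alone, which fixed the direction of its difference. Differences are on the deposited log2(FPKM + 1) scale unless stated, with limma's standard error and adjusted p, and the values of a group stand in the order of replicates 1, 2 and 3. Without hook replicate 2, the deposited counts were 8957 higher and 1738 lower.

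**Figure D2:**
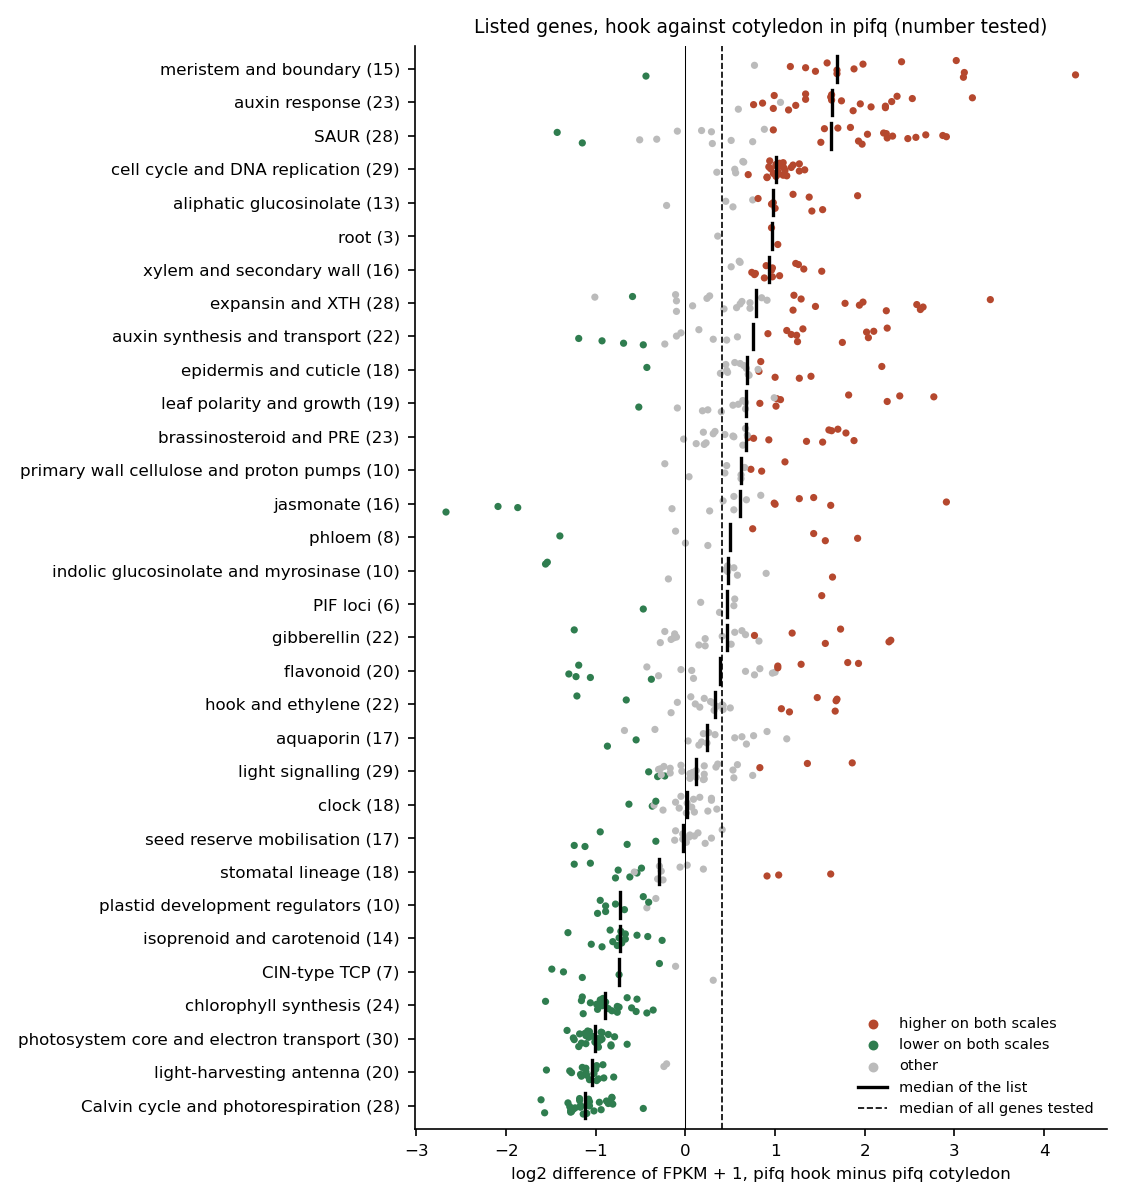
Log2 difference of FPKM + 1, pifq hook minus pifq cotyledon, for the tested members of each gene list (points), with the list median (bar) and the median of all tested genes (dashed line, 0.40). Points are coloured where a gene was called the same way on both scales. The meristem, auxin response and SAUR lists lie furthest right, with medians of 1.69, 1.63 and 1.63, partly through members that entered by the hook libraries alone (10, 2 and 8 genes), and photosynthesis lists furthest left, down to -1.12.

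Transcripts of photosynthesis made up the broadest block that was lower in the hook. All 30 tested photosystem and electron transport genes, all 28 genes of the Calvin cycle and photorespiration, all 24 of chlorophyll synthesis and all 14 of isoprenoid and carotenoid synthesis fell, with median log2 differences of -1.0, -1.12, -0.90 and -0.73 against 0.40 for all tested genes. Of 20 light-harvesting antenna genes, whose proteins bind the chlorophyll that gathers light, 18 fell. The exceptions, LHCB4.3 at 13.1 FPKM in hooks and 15.8 FPKM in cotyledons and LHCB7 at 9.88 FPKM and 11.5 FPKM, were also the antenna genes with the lowest levels, and both were called lower after scaling alone. Without hook replicate 2, as deposited, 28 of the 30 photosystem genes and 11 of the 14 carotenoid genes were called lower, and the counts of antenna, Calvin cycle and chlorophyll genes were 18, 28 and 24.

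Single genes show the size of the step. LHCB1.3 (AT1G29930, chr1:10477885-10479114), the most abundant nuclear transcript in both organs, gave 14800, 11600 and 13900 FPKM in hooks, against 26200, 29600 and 25900 FPKM in cotyledons, a log2 difference of -1.02 ± 0.24 (adjusted p = 0.00146, limma). RBCS1A (AT1G67090, chr1:25048158-25049667), a small subunit of the carbon-fixing enzyme Rubisco, gave 7490, 4850 and 6440 FPKM in hooks, against 12000, 14200 and 14500 FPKM in cotyledons, a difference of -1.14 ± 0.23 (adjusted p = 4.01e-04). In each case all hook libraries lay below all cotyledon libraries, and hook replicate 2 was the lowest. Several antenna and Rubisco genes are near-identical copies (LHCB1.1 with LHCB1.2 and LHCB1.3, LHCB2.1 with LHCB2.2, RBCS1B with RBCS2B and RBCS3B), and reads may have been split between them, so their single values are uncertain.

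The largest steps among these lists belonged to AGT, the photorespiratory alanine:glyoxylate aminotransferase, at -1.61 ± 0.28 (adjusted p = 9.99e-05), to RBCS2B at -1.57 ± 0.28 (adjusted p = 1.56e-04) and to PORA. PORA (AT5G54190, chr5:21990864-21992814) encodes the protochlorophyllide oxidoreductase that accumulates in dark-grown tissue and makes chlorophyllide when light arrives. It gave 95.3, 42.6 and 80.6 FPKM in hooks, against 189, 200 and 231 FPKM in cotyledons, a difference of -1.56 ± 0.28 (adjusted p = 1.44e-04). PORB, its relative that stays active in light, gave 610, 411 and 603 FPKM in hooks, against 1180, 1170 and 1220 FPKM in cotyledons. The ranges of the organs did not overlap for either enzyme. HEMD at -0.36 and GSA1 at -0.43 fell least among chlorophyll genes, followed by CHLG, which completes chlorophyll, at -0.54, while HEMA1, which makes the glutamyl-tRNA reductase that opens the pathway, differed by -1.14.

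Pigment and regulatory genes followed. PSY, phytoene synthase, the entry to carotenoids, gave 154, 104 and 165 FPKM in hooks, against 289, 288 and 287 FPKM in cotyledons, and BCH2, a beta-carotene hydroxylase, differed by -1.31 ± 0.25 (adjusted p = 2.62e-04). Of 10 regulators of plastid development, 8 fell. GLK1 (AT2G20570, chr2:8855302-8857758), a transcription factor that switches on antenna and chlorophyll genes, gave 31, 20.2 and 25 FPKM in hooks, against 52.2, 52.4 and 46.8 FPKM in cotyledons, a difference of -0.98 ± 0.18 (adjusted p = 1.64e-04). GLK1 was lower in every hook library than in any cotyledon library. Its partner GLK2 differed by -0.89 and SIG4, a sigma factor of the plastid RNA polymerase, by -0.95. Without hook replicate 2, 5 of the 10 regulators were called lower as deposited.

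The hypocotyl lay further along the same path for most of these genes. Of the 2204 genes lower in the hook, 83.7% had a pifq hypocotyl mean below the hook mean, 6.2% a mean at or above the cotyledon, and the rest a mean between the organs. LHCB1.3 averaged 5810 ± 905 FPKM in pifq hypocotyls and PORA 14 ± 5.86 FPKM (SD, n = 3). Hook replicate 2, the library nearest to the hypocotyl, was also the lowest hook library for LHCB1.3, RBCS1A, PORA and GLK1, and the part of tissue mixture in these differences was not tested.

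Promoters of an antenna gene and a Rubisco gene are shown because a motif of light-regulated promoters occurred in a larger share of the genes that fell than of all genes. Each is the 250 bases before the annotated transcript start, 5′ to 3′ on the gene's strand, read from the RefSeq TAIR10.1 genome. Capitals mark GATAAG (the I-box core), CACGTG (the G-box, which PIFs can bind) and AGATAT (the core of the evening element) on either strand.
LHCA1 (chr3:20341177-20341426, minus strand): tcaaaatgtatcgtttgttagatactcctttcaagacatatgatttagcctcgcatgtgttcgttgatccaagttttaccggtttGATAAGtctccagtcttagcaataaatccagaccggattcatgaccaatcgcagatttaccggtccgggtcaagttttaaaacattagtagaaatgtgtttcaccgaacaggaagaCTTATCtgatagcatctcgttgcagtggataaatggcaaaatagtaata
RBCS2B (chr5:15382072-15382321, minus strand): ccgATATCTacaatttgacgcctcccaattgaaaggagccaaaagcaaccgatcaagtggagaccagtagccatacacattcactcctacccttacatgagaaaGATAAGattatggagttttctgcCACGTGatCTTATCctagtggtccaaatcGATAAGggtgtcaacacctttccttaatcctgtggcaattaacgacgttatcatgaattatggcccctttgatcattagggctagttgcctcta
In LHCA1 the I-box core began 165 and 49 bases before the start, the second of them on the other strand. In RBCS2B it began 146, 115 and 94 bases before the start, beside a G-box at 123 and an evening-element core at 247. Over windows from 250 bases before to 50 bases after the start, GATAAG occurred on either strand in 21.4% of 2195 promoters of genes that fell, against 12.8% of 10034 promoters of genes higher as deposited and 15.0% of all 17270 tested. For the 417 genes lower by at least 2-fold the share was 21.8%. AGATAT occurred in 37.9% of those 417, against 25.3% of all, and CACGTG in 11.3%, against 9.21% of all. These shares are descriptions of letters in a window and carry no test.

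The deepest falls were not photosynthesis genes. Among called genes without overlap and with at least 10 FPKM in the higher organ, AT3G05730, which encodes a defensin-like protein, led with 120, 27.6 and 22.8 FPKM in hooks, against 618, 717 and 757 FPKM in cotyledons, a difference of -4.0 ± 0.79 (adjusted p = 3.56e-04). Hook replicate 1 stood far above its partners, and without it the difference was -4.74. AT3G16660 and AT3G16670, neighbouring genes for pollen Ole e 1 and extensin family proteins, differed by -3.65 and -3.22, and AT3G16660 by -4.42 without hook replicate 1. In hooks AT3G16670 gave 1.71, 0.582 and 0 FPKM, against 16.4, 15.7 and 11 FPKM in cotyledons, and no read in WT hooks or WT cotyledons. AIR3, a subtilisin-like protease, gave 5.74, 1.74 and 2.53 FPKM in hooks, against 26.9, 23 and 23.6 FPKM in cotyledons, and RLM3, a TIR-type resistance protein, 7.88, 3.47 and 2.49 FPKM against 28, 23.8 and 24.9 FPKM. GPT2, the glucose-6-phosphate/phosphate translocator 2 of plastids, gave 7.72, 0.951 and 5.65 FPKM in hooks, against 36.2, 21.1 and 25.3 FPKM in cotyledons, a difference of -2.53 ± 0.56 that became -1.87 without hook replicate 2.

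Genes of the phosphate starvation response were prominent in this group. When phosphate is short, PHR1 switches on transporters, phosphatases and enzymes that replace phospholipids by galactolipids and sulfolipids, and the non-coding RNA IPS1 holds miR399 away from its target PHO2. PEPC1, a phosphoethanolamine and phosphocholine phosphatase, MGDC, a synthase of galactolipids, IPS1 and the MIR399c transcript were all among the 12 deepest falls. A list of 25 genes of the response was therefore drawn up after these values were seen, and its counts are a description. Of the 23 tested, 18 fell, and SPX4 and PHO1 were higher as deposited and neither after scaling. The other 3 were not called as deposited. Of these PHO1;H1 and RNS1 were lower after scaling alone, and AT4 was called on neither scale. The median log2 difference was -1.30 in pifq and 0.05 in WT. In WT 2 of the 23 were called lower, namely SQD1 and PAP17, and 1 higher, AT4.

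PS2 (AT1G73010, chr1:27464528-27466348), a pyrophosphatase induced by phosphate shortage, gave 73.3, 24.3 and 98.5 FPKM in pifq hooks, against 269, 231 and 247 FPKM in pifq cotyledons, a difference of -2.12 ± 0.44 (adjusted p = 0.000521), while WT hooks averaged 3.22 ± 0.654 FPKM and WT cotyledons 2.67 ± 0.973 FPKM. PEPC1 (AT1G17710, chr1:6090405-6092027) gave 6.93, 2.23 and 14.2 FPKM in pifq hooks, against 47.3, 41 and 37.3 FPKM in pifq cotyledons, a difference of -2.55 ± 0.39 (adjusted p = 3.57e-05) that became -1.96 without hook replicate 2. SQD2, which finishes sulfolipid synthesis, gave 83, 47.3 and 91.2 FPKM in pifq hooks, against 250, 201 and 169 FPKM in pifq cotyledons, with means of 19.6 ± 3.15 FPKM and 17.3 ± 0.108 FPKM in WT hooks and cotyledons. For all 3 genes the pifq organs did not overlap, and hook replicate 2 was the lowest library. SPX3, of the SPX family, gave 5.33, 2.76 and 7.28 FPKM in pifq hooks, against 28.4, 22.8 and 16.6 FPKM in pifq cotyledons. The transporter PHT1;4 gave 7.68, 6.55 and 8.93 FPKM against 32, 31.1 and 25.3 FPKM. PHR1 itself differed by -0.44 ± 0.13 (adjusted p = 0.00638).

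Between the genotypes, the signed hook minus cotyledon value of the phosphate genes was compared by limma's test of the difference itself. It was called smaller in pifq than in WT for 12 of the 23 genes, and larger for SPX4. In all 12 but AT4 the pifq value was negative and larger in size than the WT value, as for PEPC1 at -2.55 against 0.19. AT4 was less positive in pifq, at 0.26 against 1.54 in WT. Calls rested in part on hook replicate 2 for SPX1, GDPD1 and PHO2, whose adjusted p became 0.121, 0.06 and 0.145 without it. PHO1, the phosphate exporter of root vessels, likewise lost its call as deposited (adjusted p = 0.264). The same library stood alone for it, with 1.63, 7.85 and 1.56 FPKM in hooks, against 1.13, 0.998 and 1.39 FPKM in cotyledons, and 50.2 ± 10.9 FPKM in hypocotyls (SD, n = 3). The part of hypocotyl tissue in these values was not tested.

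**Figure D3:**
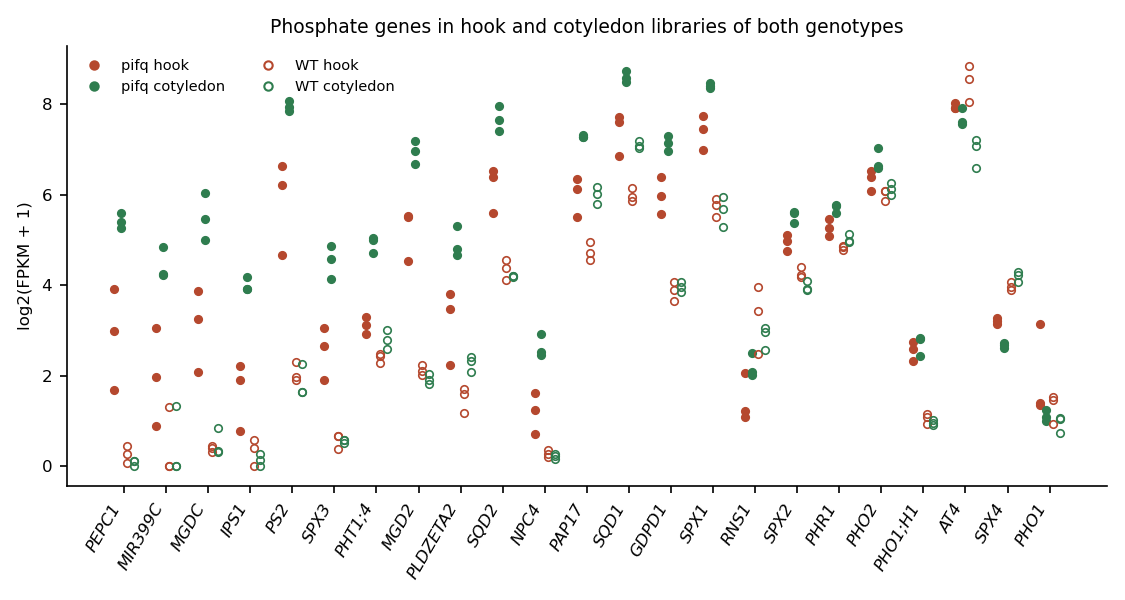
Levels as log2(FPKM + 1) of 23 tested phosphate genes, a list drawn up after values were seen, in pifq hooks and cotyledons (filled points, 1 per library) and WT hooks and cotyledons (open points). For the 18 genes that fell all pifq cotyledon points lie above all pifq hook points. The same held for 2109 of all 2204 genes that fell and for 14.6% of all tested genes. For PEPC1, MGDC, IPS1, PS2 and SPX3 the WT points of both organs lie close together below the pifq points.

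MicroRNA precursors also stood out, and their mature sequences are shown because the arms, not the precursors counted here, act on targets. Bases 2 to 8, the seed, are in capitals, and the sequences come from the RefSeq TAIR10.1 genome at the annotated arms.
miR399c-3p (chr5:24962568-24962588, plus strand): uGCCAAAGgagaguugcccug
miR398c-3p (chr5:4694778-4694798, plus strand): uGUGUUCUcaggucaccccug
miR163 (chr1:24884359-24884382, plus strand): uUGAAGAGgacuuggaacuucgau
The site in IPS1 is shown with the bases that pair with miR399c-3p in capitals.
IPS1 site (chr3:3051224-3051247, plus strand): uuGGGCAACUucuaUCCUUUGGCA
It pairs with 18 of the 21 bases of miR399c-3p, with 3 mismatched bases and an unpaired insertion of 3 bases in the middle. The 3 seeds differ from each other. MIR399c gave 7.31, 0.854 and 2.9 FPKM in pifq hooks, against 28, 17.9 and 18 FPKM in pifq cotyledons, a difference of -2.48 ± 0.5 (adjusted p = 4.05e-04), and IPS1 gave 3.62, 0.718 and 2.75 FPKM in hooks, against 17.2, 14.2 and 14.1 FPKM in cotyledons, a difference of -2.38 ± 0.38 (adjusted p = 4.85e-05). Both the microRNA precursor and its mimic were thus higher in every pifq cotyledon library than in any pifq hook library. In WT, IPS1 averaged 0.272 ± 0.25 FPKM in hooks and 0.106 ± 0.107 FPKM in cotyledons. MIR398c, whose mature form targets copper/zinc superoxide dismutase transcripts, gave 4.66, 1.69 and 0 FPKM in hooks, against 17.8, 9.09 and 11.1 FPKM in cotyledons, with a difference of -2.41 that moved to -3.00 without hook replicate 1 and -1.75 without hook replicate 3. MIR163 gave 8.99, 2.94 and 5.66 FPKM in pifq hooks, against 12.2, 13.4 and 23.8 FPKM in pifq cotyledons. In WT its organs ran the other way, with 34.4 ± 12 FPKM in hooks and 10.8 ± 4.21 FPKM in cotyledons.

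Among the steepest rises in the hook was BP, also known as KNAT1, and with it came genes of the meristem and of organ boundaries. Of 15 tested members 13 rose and 1 fell, but 10 of the 13 had no cotyledon library at 1 FPKM and entered through the hook libraries alone, which fixed their direction, so the count and the median of 1.69 are no more than a description. Of the 3 members with all 6 libraries at 1 FPKM or above, BP rose, CLV1 fell and ATH1 was not called on both scales. BP (AT4G08150, chr4:5147699-5151159), a KNOX homeobox factor of the stem and shoot apex, gave 58.3, 84.1 and 42.3 FPKM in hooks, against 1.9, 2.22 and 1.77 FPKM in cotyledons, a difference of 4.35 ± 0.24 (adjusted p = 5.80e-09). STM (AT1G62360, chr1:23058582-23062063), the KNOX factor that keeps the shoot meristem undifferentiated, gave 10.7, 17.2 and 10.8 FPKM in hooks, against 0.819, 0.76 and 0.229 FPKM in cotyledons, a difference of 3.1 ± 0.22 (adjusted p = 3.71e-08). All hook libraries lay far above all cotyledon libraries, with hook replicate 2 the highest for both genes. KNAT6, a further KNOX gene, differed by 3.11 ± 0.15 (adjusted p = 2.05e-09).

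Boundary genes, which keep organs separate from the meristem, rose at low levels. CUC1, CUC2 and CUC3 averaged 2.60, 2.59 and 5.35 FPKM in hooks, against 0.294, 0.114 and 0.713 FPKM in cotyledons, LSH4 16.6 FPKM against 1.16 FPKM, and BOP1 4.54 FPKM against 0.413 FPKM. WUS and CLV3, which mark the organizing centre and the stem cells of the meristem, did not reach 1 FPKM in 3 libraries, and ATH1 was higher as deposited alone. CLV1, the receptor of the CLV3 peptide, went the other way with 18.2, 15.3 and 19.6 FPKM in hooks, against 26.8, 23.3 and 22.8 FPKM in cotyledons, a difference of -0.44 that was not called without hook replicate 2 (adjusted p = 0.0545). Summed over all 17 listed genes, WUS and CLV3 included, the list gave 161 to 226 FPKM in hooks and 40.9 to 50.1 FPKM in cotyledons. The labels do not say whether the hook pieces held the shoot apex, and the part of apex tissue in the results on leaf growth and division was not tested.

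Genes of young leaves and of cell division moved in the same direction as these markers. Of 19 genes of leaf polarity and growth, 8 rose and 1 fell. GRF5 (AT3G13960, chr3:4608076-4610497), a growth-regulating factor of leaf primordia, gave 11.7, 15.8 and 12.4 FPKM in hooks, against 1.38, 1.26 and 0.666 FPKM in cotyledons, a difference of 2.77 ± 0.2 (adjusted p = 3.71e-08). Its co-activator GIF1 gave 19.5, 26.9 and 18.5 FPKM in hooks, against 3.8, 3.5 and 2.56 FPKM in cotyledons, and ANT, an AP2 factor that prolongs organ growth, gave 32.3, 42 and 41 FPKM against 7.78, 7.9 and 6.15 FPKM. JAG, a zinc-finger factor of the leaf margin, averaged 3.13 FPKM in hooks and 0.162 FPKM in cotyledons. It entered through the hook libraries alone, which fixed its direction. GRF5, GIF1, ANT and JAG did not overlap between the organs, and GRF5 averaged 1.86 ± 0.503 FPKM in hypocotyls, below all hook libraries. The abaxial factor YAB5 fell, at -0.52, a call lost without hook replicate 2 (adjusted p = 0.0785), while FIL and YAB3, its relatives, were not called as deposited, with 60.5 FPKM and 35.4 FPKM in hooks and 50.7 FPKM and 37.7 FPKM in cotyledons.

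CYP78A5 (KLU), a cytochrome P450 that promotes organ growth, gave 34.6, 44 and 47.9 FPKM in hooks, against 4.91, 3.56 and 1.52 FPKM in cotyledons, a difference of 3.39 ± 0.29 (adjusted p = 1.60e-07). The CIN-type TCP factors, which end proliferation in leaves, went down: 5 of 7 tested fell, none rose, and the median was -0.74. TCP13 gave 5.83, 3.01 and 5.74 FPKM in hooks, against 14.1, 16.6 and 14.2 FPKM in cotyledons, and TCP4 gave 22.2, 12.8 and 14.1 FPKM against 40.6, 35.1 and 34.4 FPKM, with no overlap for either.

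Of 29 genes of the cell cycle and of DNA replication, 24 rose and none fell, and the median difference was 1.01. All 29 had hook libraries above all cotyledon libraries, which held for 60.6% of tested genes as deposited. CDKB2;1 (AT1G76540, chr1:28720328-28722550), a kinase of mitosis, gave 56.1, 68.4 and 59.1 FPKM in hooks, against 27.4, 23.6 and 20.3 FPKM in cotyledons, a difference of 1.33 ± 0.11 (adjusted p = 1.40e-07). PCNA1, the sliding clamp of DNA polymerase, gave 29.4, 33.9 and 31.8 FPKM in hooks, against 12, 14.3 and 11.3 FPKM in cotyledons. The remaining 5, CYCD3;1, CYCD3;2, CDKB2;2, CDC6 and TSO2, were higher as deposited and not called after scaling, and CYCD3;2 lost the deposited call without hook replicate 2. Hypocotyls did not continue this rise, since the list summed to 705 to 788 FPKM in hooks, 368 to 404 FPKM in cotyledons and 364 to 394 FPKM in hypocotyls.

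**Figure D4:**
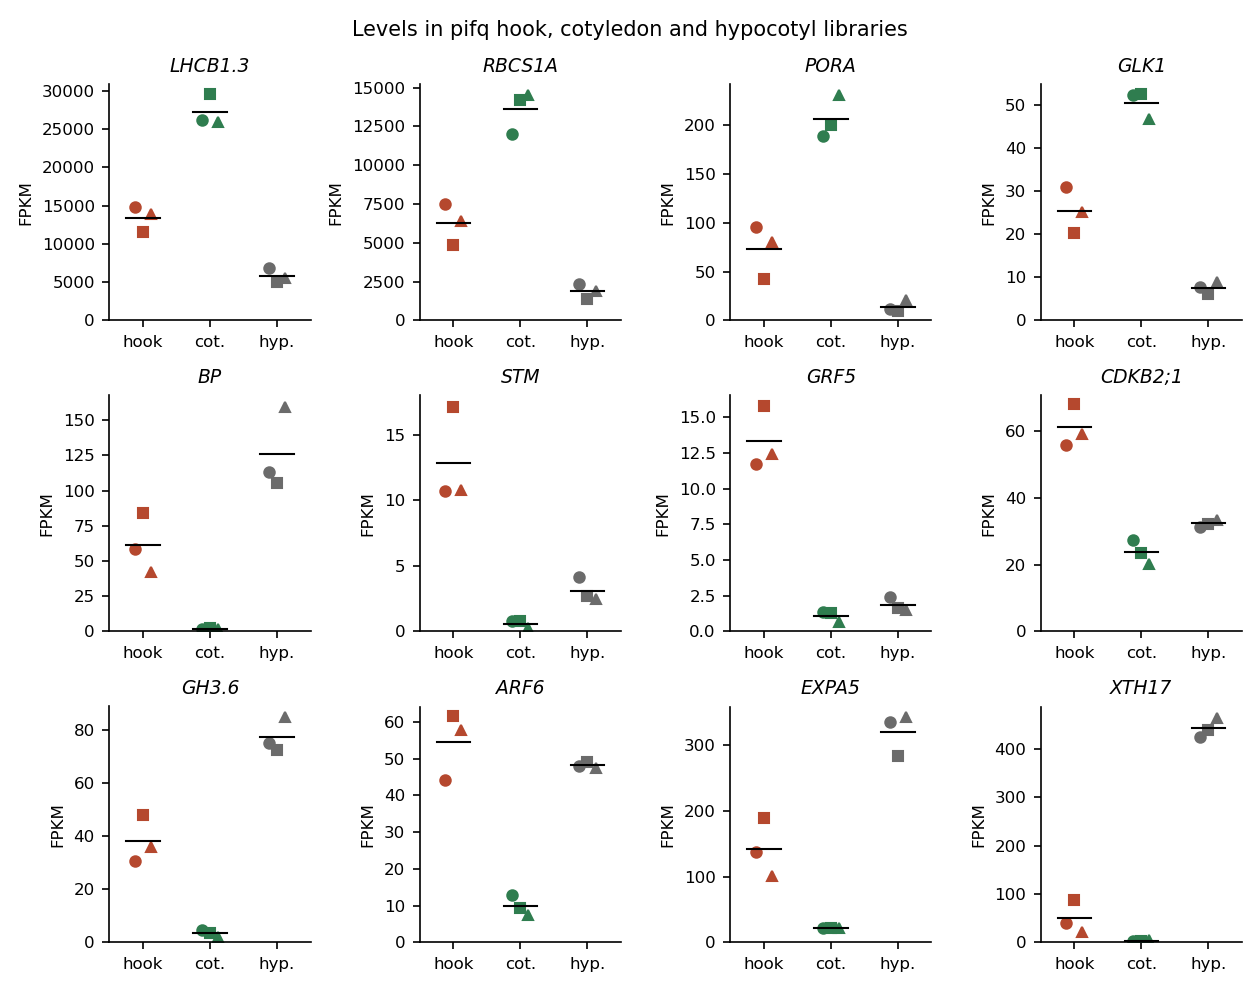
FPKM of 12 genes in pifq hook, cotyledon (cot.) and hypocotyl (hyp.) libraries (points, shaped by replicate as 1 circle, 2 square and 3 triangle) with group means (bars), each axis starting at 0. LHCB1.3, RBCS1A, PORA and GLK1 fall between hypocotyl and cotyledon in the hook, STM, GRF5 and CDKB2;1 peak in the hook, and BP, GH3.6, EXPA5 and XTH17 are higher still in the hypocotyl.

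Genes of the epidermis and of stomata went both ways. Of 18 genes of the epidermis and cuticle 6 rose and 1 fell, beside a background of 24.3% rising and 12.7% falling. ATML1, the homeobox factor that sets epidermal identity, gave 56.1, 66.1 and 58.6 FPKM in hooks, against 28.3, 23.6 and 21.8 FPKM in cotyledons, a difference of 1.27 ± 0.1 (adjusted p = 9.54e-08), and PDF1, a protein of the outermost cell layer, gave 1010, 1290 and 1270 FPKM against 528, 455 and 373 FPKM. LTP2, a lipid transfer protein, gave 2560, 3100 and 2450 FPKM in hooks, against 606, 577 and 578 FPKM in cotyledons, and was the strongest of the list at 2.19 ± 0.18 (adjusted p = 8.68e-08). Its relative LTP1 was lower, at -0.43 ± 0.18 (adjusted p = 0.0436), a call that was lost when any single pifq library was left out. Of the wax genes CER3 rose, at 0.82, while CER1, CER2 and CER5 did not pass on both scales, with 25.7, 58.8 and 98.5 FPKM in hooks, against 19.9, 41.6 and 71.3 FPKM in cotyledons.

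In the stomatal lineage 3 of 18 genes rose, and these were the ERECTA family of receptor kinases, which space stomata and also promote growth. ERL2 gave 21.9, 24.4 and 25.9 FPKM in hooks, against 8.28, 7.33 and 5.89 FPKM in cotyledons, and ERECTA itself 67.3, 76.1 and 82.6 FPKM against 44.2, 37.5 and 36.8 FPKM. The 7 genes that fell included markers of guard cells: KAT1, a potassium channel, gave 7.43, 6.88 and 4.31 FPKM in hooks, against 17.1, 15.1 and 14.8 FPKM in cotyledons, MYB60 gave 10.3, 4.51 and 6.49 FPKM against 15.6, 15.2 and 14.7 FPKM, and FAMA, which turns precursors into guard cells, 4.79, 2.38 and 5.04 FPKM against 7, 8.33 and 7.03 FPKM. These 3 genes were lower in every hook library than in any cotyledon library. SPCH and MUTE, which start the lineage, were lower after scaling alone, with 6.69 and 2.70 FPKM in hooks, against 8.16 and 3.64 FPKM in cotyledons.

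Auxin response genes rose almost throughout. Auxin frees ARF transcription factors from Aux/IAA repressors, and Aux/IAA and GH3 genes are themselves rapid targets. Of 23 tested genes 21 rose and none fell, with a median log2 difference of 1.63. Of the 21, 2 entered through the hook libraries alone, which fixed their direction. Among the 19 members with all 6 libraries at 1 FPKM or above, 17 rose. GH3.6 (AT5G54510, chr5:22130964-22133688), which conjugates auxin to amino acids, gave 30.9, 48 and 36 FPKM in hooks, against 4.49, 3.71 and 1.9 FPKM in cotyledons, a difference of 3.2 ± 0.25 (adjusted p = 7.65e-08). ARF6 (AT1G30330, chr1:10685822-10690988), an activator that promotes elongation, gave 44.1, 61.5 and 57.9 FPKM in hooks, against 12.9, 9.45 and 7.41 FPKM in cotyledons, a difference of 2.36 ± 0.21 (adjusted p = 2.01e-07). Neither gene overlapped between the organs. Among the repressors, IAA19 averaged 32.9 FPKM in hooks and 5.75 FPKM in cotyledons and IAA7 220 FPKM and 45.2 FPKM. The exceptions were IAA3, higher as deposited alone, and IAA17, which gave 27, 59.1 and 14.5 FPKM in hooks, against 13, 12.5 and 14.3 FPKM in cotyledons, and was not called (adjusted p = 0.0912). Hook replicate 2 was the highest library for IAA17, and the difference was 0.55 without it.

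The promoters of GH3.6 and IAA19 are shown for comparison with those of the genes that fell. Capitals mark the same motifs and TGTCTC, the auxin response element, which was added to the search after the values were seen.
GH3.6 (chr5:22133689-22133938, minus strand): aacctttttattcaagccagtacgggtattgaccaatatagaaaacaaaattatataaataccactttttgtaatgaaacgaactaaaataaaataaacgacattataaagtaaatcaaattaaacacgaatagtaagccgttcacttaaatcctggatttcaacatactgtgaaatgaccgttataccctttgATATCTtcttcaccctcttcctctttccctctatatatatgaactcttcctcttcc
IAA19 (chr3:5263751-5264000, plus strand): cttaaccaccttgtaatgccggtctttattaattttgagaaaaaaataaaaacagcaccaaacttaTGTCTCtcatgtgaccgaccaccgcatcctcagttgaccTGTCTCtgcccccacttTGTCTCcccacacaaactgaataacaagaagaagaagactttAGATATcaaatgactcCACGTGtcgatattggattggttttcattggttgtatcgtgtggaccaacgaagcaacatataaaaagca
IAA19 held TGTCTC 184, 145 and 128 bases before the start, with an evening-element core at 86 and a G-box at 70, while the only match in this stretch of GH3.6 was an evening-element core at 56. Over the windows of all genes, TGTCTC occurred on either strand in 14.7% of 4225 promoters of genes that rose, in 15.3% of 2290 promoters of genes higher by at least 2-fold, in 10.3% of 417 lower by at least 2-fold and in 13.5% of all.

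Genes that make and move auxin split. Of 22 tested, 11 rose and 4 fell. The influx carrier LAX3, which acts in the hook, rose, with 24.4, 38.3 and 30.2 FPKM in hooks, against 5.72, 7.74 and 5.79 FPKM in cotyledons. PID, the kinase that directs PIN proteins, differed by 2.25 ± 0.16 (adjusted p = 3.75e-08). Among the 17 members with all 6 libraries at 1 FPKM or above, 9 rose and 1 fell. Of the synthesis genes YUC3 and YUC4 alone rose. These flavin monooxygenases of the last step averaged 3.11 and 2.33 FPKM in hooks, against 0.215 and 0.398 FPKM in cotyledons. Both entered through the hook libraries alone, which fixed their direction. Falls were seen for YUC9, with 1.19, 0.236 and 1.24 FPKM in hooks against 2.9, 3.44 and 3.14 FPKM in cotyledons, and YUC5, with 0.496, 0.622 and 1.04 FPKM against 1.88, 1.49 and 3.75 FPKM. TAA1, of the step before, also fell and averaged 11 FPKM against 15.6 FPKM. TAA1 lost its call without hook replicate 2 (adjusted p = 0.0501).

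SAUR genes, small auxin-induced genes of cell expansion, rose for 17 of 28 tested members and fell for 2, with a median of 1.63. Of these rises 8 belonged to genes that entered through the hook libraries alone, so that their direction was fixed. Among the 14 members with all 6 libraries at 1 FPKM or above, 4 rose and 2 fell. As deposited 20 of the 28 were called higher, and 17 without hook replicate 2. The largest difference, 2.91, was that of SAUR22, with 9.96, 17.1 and 3.54 FPKM in hooks, against 0.134, 0.4 and 0.327 FPKM in cotyledons. However, SAUR19 to SAUR24 are near-identical and their single values are uncertain. SAUR26, outside that cluster, gave 11.3, 14.2 and 3.79 FPKM in hooks, against 0.56, 0.699 and 0.275 FPKM in cotyledons. SAUR32 and SAUR6 fell, with 7.17, 9.45 and 4.06 FPKM and 58.7, 32.5 and 44.7 FPKM in hooks, against 18.3, 20.6 and 19.1 FPKM and 78, 109 and 115 FPKM in cotyledons. SAUR50, which takes part in cotyledon opening, gave 59.5, 58.2 and 44.6 FPKM in hooks, against 53.7, 59.5 and 58 FPKM in cotyledons, overlapping values that were lower after scaling alone.

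Genes of the hook itself and of ethylene changed little as a list. Of 22 tested, 6 rose and 2 fell, and the median was 0.34, close to the 0.40 of all genes. Of the 6 rises 3, WAG1, WAG2 and ACS5, had no cotyledon library at 1 FPKM and entered through the hook libraries alone, which fixed their direction. Among the 17 members with all 6 libraries at 1 FPKM or above, 2 rose and 1 fell. HLS1 gave 2.64, 2.67 and 2.67 FPKM in hooks, against 3.59, 2.8 and 2.93 FPKM in cotyledons, values that did not overlap and yet were not called (adjusted p = 0.526), with 19.4 ± 4.91 FPKM in WT hooks and 35.5 ± 1.01 FPKM in WT cotyledons. SAUR17, which takes part in hook formation, fell to 1.03, 0.42 and 0 FPKM in hooks, against 1.63, 1.89 and 3.71 FPKM in cotyledons. Enzymes of ethylene synthesis split. ACS5, an ACC synthase, rose, with 2.38, 3.86 and 1.53 FPKM in hooks, against 0.106, 0.0796 and 0.026 FPKM in cotyledons. ACO4, an ACC oxidase, fell, with 99.3, 93.3 and 99.5 FPKM in hooks, against 156, 168 and 140 FPKM in cotyledons. WAG2, a kinase related to PID that takes part in hook opening, differed by 1.67 ± 0.25 (adjusted p = 3.34e-05). The signalling genes ETR1, CTR1, EIN2 and EIN3 were higher as deposited alone.

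Gibberellin genes gave 6 rises and 1 fall among 22, and the rises made up a share close to the background of 24.3%. GA2OX4 and GA2OX1, which inactivate gibberellin, led with 5.9, 6.81 and 6.32 FPKM and 4.49, 5.87 and 4.79 FPKM in hooks, against 0.608, 0.445 and 0.437 FPKM and 0.304, 0.19 and 0.261 FPKM in cotyledons. Both entered through the hook libraries alone, which fixed their direction. Among the 19 members with all 6 libraries at 1 FPKM or above, 3 rose and 1 fell. GA20OX1, of the synthesis side, averaged 5.39 FPKM in hooks and 1.11 FPKM in cotyledons. GASA6 fell, with 164, 136 and 140 FPKM in hooks, against 288, 405 and 354 FPKM in cotyledons. GASA4, a gibberellin-regulated peptide gene of the hook in WT, gave 1480, 1540 and 1410 FPKM in pifq hooks, against 833, 1080 and 969 FPKM in pifq cotyledons, and was not called after scaling, where the difference was 0.15. Of 23 brassinosteroid and PRE genes 10 rose and none fell. Of the 10, 1 entered through the hook libraries alone, which fixed its direction. ROT3, a brassinosteroid P450, gave 8.64, 13.3 and 7.56 FPKM in hooks, against 1.87, 1.52 and 2.28 FPKM in cotyledons, and the growth-promoting PRE1 averaged 37.2 FPKM against 11 FPKM.

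Cell wall genes rose in part. Of 28 expansin and XTH genes, whose proteins loosen walls and rejoin xyloglucan, 12 rose and 1 fell. XTH17 gave 40.7, 88.2 and 22.4 FPKM in hooks, against 3.61, 2.08 and 4.2 FPKM in cotyledons, and EXPA5 (AT3G29030, chr3:11011262-11013451) gave 137, 189 and 100 FPKM against 21.5, 22.1 and 21.2 FPKM, a difference of 2.62 ± 0.23 (adjusted p = 2.27e-07). XTH4, the most abundant, averaged 666 FPKM in hooks and 105 FPKM in cotyledons. Hook replicate 2 was the highest hook library for XTH17 and EXPA5, and hypocotyls were higher again, at 443 ± 20.1 FPKM and 320 ± 31.8 FPKM (SD, n = 3). Of 10 genes of primary wall cellulose and proton pumps, AHA2, CESA6 and COB rose, by 1.11, 0.85 and 0.73. The background was 24.3% rising and 12.7% falling. No aquaporin rose and 2 of 17 fell, PIP1A at -0.87 and PIP2B at -0.55, the falls a share close to the background. TIP2;1 and PIP2;4 were higher as deposited, but not after scaling nor without hook replicate 2 (adjusted p = 0.101 and 0.175).

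Vascular markers were higher in the hook. Of 16 xylem and secondary wall genes 13 rose and none fell, with a median of 0.93. Of the 13, 1 entered through the hook libraries alone, which fixed its direction. XCP1, a protease of dying xylem vessels, gave 37.2, 48.7 and 38.9 FPKM in hooks, against 15.3, 14.2 and 12.1 FPKM in cotyledons, and LAC4, a laccase of lignin synthesis, 12.9, 19.3 and 16.1 FPKM against 7.04, 6.14 and 4.41 FPKM. Phloem genes split, with 4 of 8 rising and 1 falling. Of the 4 rises 1 entered through the hook libraries alone, which fixed its direction. The sieve element protein SEOA gave 17.5, 21.4 and 16.9 FPKM in hooks, against 4.98, 4.79 and 2.94 FPKM in cotyledons. PP2-A1, a lectin of phloem, fell, with 6.64, 3.7 and 3.6 FPKM against 14.1, 13.1 and 13.4 FPKM. The sucrose carrier SUC2 averaged 43.2 FPKM against 36.0 FPKM without a call. Xylem list sums were 189 to 247 FPKM in hooks, 86.8 to 108 FPKM in cotyledons and 541 to 593 FPKM in hypocotyls. Of 13 root markers only SHR, SCR and PIN2 were tested. Of these SHR and PIN2 rose, to 16.6 and 1.52 FPKM, against 7.46 and 0.295 FPKM in cotyledons. PIN2 entered through the hook libraries alone, which fixed its direction. No embryo storage gene passed the filter, and the sum of that list was at most 3.08 FPKM in hooks and 3.19 FPKM in cotyledons.

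Beyond BP, the steepest rises came from genes with fewer known roles. AT1G12080, annotated as a vacuolar calcium-binding protein, gave 572, 820 and 365 FPKM in hooks, against 26.6, 19.1 and 19.4 FPKM in cotyledons, a difference of 4.63 ± 0.37 (adjusted p = 8.00e-08). ADS4, a fatty acid desaturase, gave 64.3, 76.9 and 52.1 FPKM in hooks, against 3.26, 2.85 and 3 FPKM in cotyledons, a difference of 4.0 ± 0.23 (adjusted p = 7.12e-09). RCI3, a peroxidase, gave 29.7, 57.7 and 14.9 FPKM in hooks, against 0.954, 0.834 and 3.04 FPKM in cotyledons, and AT2G14900, of the gibberellin-regulated family, 53.8, 79.3 and 34.3 FPKM against 3.63, 2.02 and 3.9 FPKM. These genes belong to the 12 steepest rises, picked among called genes without overlap, and the other 7, AT5G22580, AT3G13980, AT5G57785, AT5G38020, AT4G23870, AT3G46490 and AT1G72230, differed by 3.68 to 3.91. Hypocotyls went further for many genes: 43.6% of the 10038 genes higher in the hook as deposited had a hypocotyl mean above the hook, 41.8% a mean between the organs and 14.6% a mean at or below the cotyledon.

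Transcripts for the synthesis of aliphatic glucosinolates, defence compounds, rose for 9 of 13 tested members and fell for none. Of the 9, 3 entered through the hook libraries alone, and among the 8 members with all 6 libraries at 1 FPKM or above 6 rose. MYB28 and MYB29, the factors that activate the pathway, gave 23.5, 30 and 18.6 FPKM and 2.58, 3.26 and 3.02 FPKM in hooks, against 9.95, 8.63 and 6.52 FPKM and 0.346, 0.633 and 0.169 FPKM in cotyledons. FMOGS-OX3, which oxidises side chains, gave 5.18, 7.08 and 4.32 FPKM in hooks, against 0.873, 0.719 and 0.514 FPKM in cotyledons. The myrosinases that cleave glucosinolates fell, TGG1 at 145, 72.5 and 190 FPKM in hooks, against 410, 380 and 337 FPKM in cotyledons, and TGG2 at -1.54. MYB51, an activator of the indolic branch, rose by 1.64, the only 1 of 10 indolic and myrosinase genes to rise.

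Of 16 tested jasmonate genes, 6 rose and 3 fell. LOX2 (AT3G45140, chr3:16525245-16529352), the plastid lipoxygenase of leaf jasmonate synthesis, gave 22.2, 5.3 and 11.4 FPKM in pifq hooks, against 96.1, 72.1 and 64.7 FPKM in pifq cotyledons, a difference of -2.67 ± 0.46 (adjusted p = 1.05e-04), with 0.0815 ± 0.0557 FPKM and 0.0138 ± 0.0123 FPKM in WT hooks and cotyledons. Of the allene oxide cyclases, AOC2 gave 15.4, 8.91 and 12.2 FPKM in hooks, against 56.6, 55.6 and 49.9 FPKM in cotyledons, and AOC1 fell, at -1.87, while AOC3 gave 13.9, 20 and 17.1 FPKM against 3.48, 5.85 and 5.36 FPKM. VSP2, a vegetative storage protein that jasmonate induces, gave 11.7, 24.2 and 11.6 FPKM in hooks, against 1.58, 0.985 and 0.838 FPKM in cotyledons. As deposited 10 of the 16 were higher, and 6 without hook replicate 2.

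Flavonoid genes gave 5 rises and 5 falls among 20, and the rises made up a share close to the background. Of the 5 rises 1 entered through the hook libraries alone, which fixed its direction. TT4, FLS1, MYB111, 4CL3 and PAL1 fell. TT4, chalcone synthase, gave 285, 147 and 265 FPKM in hooks, against 552, 502 and 514 FPKM in cotyledons, FLS1, flavonol synthase, 72.3, 25.8 and 56.3 FPKM against 118, 111 and 126 FPKM, and the flavonol activator MYB111 12.4, 6.38 and 8.85 FPKM against 23.5, 19.8 and 21.7 FPKM. Not all early steps fell: C4H and TT5 were not called as deposited, with 140 and 58.5 FPKM in hooks, against 131 and 71.5 FPKM in cotyledons, and TT7 was higher as deposited alone. MYB12, another flavonol activator, went the other way at low levels, averaging 2.11 FPKM in hooks and 0.510 FPKM in cotyledons. The bHLH factors GL3, EGL3 and TT8, which act in anthocyanin and trichome control, rose by 1.93, 1.81 and 1.29. The anthocyanin enzymes DFR and LDOX were higher as deposited alone, at 71.1 and 88.1 FPKM in hooks, against 35.7 and 43.4 FPKM in cotyledons.

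Few light signalling and clock genes were called on both scales. Of 29 light signalling genes 3 rose and 3 fell, with a median of 0.12. PIL1 and ATHB2, known as rapid shade-induced genes, rose, with 4.83, 7.06 and 4.38 FPKM and 13.3, 18.3 and 15.7 FPKM in hooks, against 0.868, 0.375 and 1.05 FPKM and 6.25, 4.74 and 5.57 FPKM in cotyledons. HY5, which opposes PIFs, gave 41.7, 37.6 and 29.4 FPKM in hooks, against 20.8, 24.9 and 28.6 FPKM in cotyledons, higher as deposited alone. SPA3, CRY1 and CRY2 fell by small steps of -0.41, -0.31 and -0.23, and SPA3 and CRY2 were not called without hook replicate 2 (adjusted p = 0.0937 and 0.0753). UVR8, the UV-B receptor, was called higher as deposited and lower after scaling, and was not called as deposited without hook replicate 2 (adjusted p = 0.0568). No clock gene rose and 3 of 18 fell, LUX at -0.63, ELF3 at -0.37 and RVE4 at -0.33, beside a background of 12.7% falling. Of 17 genes of seed reserve use, 5 fell, or 3 as deposited without hook replicate 2, among them isocitrate lyase (ICL) at 286, 163 and 159 FPKM in hooks, against 470, 367 and 444 FPKM in cotyledons. Malate synthase (MLS) overlapped between the organs, with 44.5, 10.2 and 11.3 FPKM against 46.5, 29.2 and 57.1 FPKM, and lost its call without hook replicate 2 (adjusted p = 0.0739).

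The same organs of WT were compared as a reference, and a call in a single genotype does not by itself show a difference between the genotypes. In WT 6130 genes (35.3%) were higher and 4481 (25.8%) lower in the hook, 61.0% in either direction, with a median of 0.08. Of genes higher in pifq hooks as deposited, 49.8% were also higher in WT hooks, and of those lower in pifq 76.9% were also lower in WT. Seen from WT, 81.6% of its higher calls and 37.8% of its lower calls were shared with pifq. As deposited, 1107 genes were higher in pifq and lower in WT hooks, against 121 the other way. These shares and counts rest on deposited calls alone and depend on scale. Lower calls in pifq hooks went from 2204 to 4776 with median-ratio scaling, and the sharing was not counted on that scale. The difference between the organ differences was tested in the same fit. Larger and smaller refer to the signed hook minus cotyledon value, so a larger one can be less negative and a smaller one more negative. This value was larger in pifq for 5835 genes (33.6%) and smaller for 1925 (11.1%), together 44.6%. After median-ratio scaling these became 2898 (16.7%) and 3809 (21.9%), together 38.6%, and the share of larger calls moved to 43.2%, against 75.2% as deposited, so that single genes are named only where both scales called them.

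Meristem, boundary and leaf genes mostly had a larger signed difference, hook minus cotyledon, in pifq than in WT. The organ difference was larger in pifq for 13 of 15 meristem and boundary genes (12 after scaling) and for 18 of 19 leaf genes (14 after scaling), and smaller for none. The filter used pifq libraries, so genes high in pifq hooks were more likely to enter. STM averaged 12.9 ± 3.71 FPKM in pifq hooks and 0.603 ± 0.325 FPKM in pifq cotyledons, against 8.84 ± 1.44 FPKM in WT hooks and 4.11 ± 1.21 FPKM in WT cotyledons (SD, n = 3), so the organ difference was larger in pifq by 2.14 ± 0.31 (SE, adjusted p = 6.51e-05). For GRF5 the same values were 13.3 ± 2.17 FPKM and 1.1 ± 0.383 FPKM in pifq, against 3.97 ± 0.435 FPKM and 2.34 ± 0.451 FPKM in WT, and for ANT the hook mean was 38.4 ± 5.35 FPKM in pifq, against 8.26 ± 1.53 FPKM in WT. In WT 2 leaf genes were higher and 8 lower in the hook, against 15 and 1 in pifq as deposited. A larger signed value was thus not always a steeper step, since some genes lower in WT hooks were higher or not called in pifq hooks. BP and KNAT6, by contrast, were not called for this difference (0.52 and 0.3, adjusted p = 0.223 and 0.245).

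Cell division genes had the larger organ difference in pifq for 22 of 29 as deposited, but 7 after scaling. For CDKB2;1 it was 0.73 ± 0.16 (adjusted p = 0.00161), with 61.2 ± 6.4 FPKM in pifq hooks and 23.8 ± 3.51 FPKM in pifq cotyledons, against 10.2 ± 0.766 FPKM and 6.38 ± 0.884 FPKM in WT. Aliphatic glucosinolate genes had larger differences in pifq for 11 of 13 (8 after scaling): MYB29 gave no read in WT hooks or WT cotyledons. Hook and ethylene genes had a smaller organ difference in pifq for 10 of 22 (12 after scaling) and a larger one for 2 (none after scaling). Expansin and XTH genes had a smaller one for 11 of 28 (14 after scaling) and a larger one for 6 (3 after scaling).

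EXPA8 gave 56.9 ± 25.2 FPKM in pifq hooks and 32.3 ± 3.2 FPKM in pifq cotyledons, against 230 ± 29 FPKM in WT hooks and 9.64 ± 8.16 FPKM in WT cotyledons, a value of -4.0 ± 0.55 for pifq minus WT (adjusted p = 3.75e-05), which became -3.49 without WT cotyledon replicate 2 and -4.59 without WT cotyledon replicate 3. GASA4 gave 1480 ± 65.9 FPKM and 962 ± 126 FPKM in the pifq organs, against 12200 ± 1490 FPKM and 1080 ± 397 FPKM in the WT organs, a value of -2.93 ± 0.29 (adjusted p = 3.09e-06). Both genes separated the organs of WT far more than those of pifq. ACS5 and WAG2 were higher in the hook in both genotypes, with a smaller step in pifq, at -2.05 and -1.02, and HLS1 was not called for the difference (adjusted p = 0.0817).

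Photosynthesis genes separated the organs in both genotypes. In WT all 20 antenna genes and all 28 Calvin cycle genes were lower in the hook, with medians of -1.41 and -1.44, against -1.05 and -1.12 in pifq. As deposited the organ difference was called larger in pifq, that is less negative, for 2 antenna genes and 1 Calvin cycle gene, and for none after scaling. Levels differed between the genotypes gene by gene. LHCB1.3 averaged 13400 ± 1640 FPKM in pifq hooks and 27200 ± 2070 FPKM in pifq cotyledons, against 1940 ± 722 FPKM in WT hooks and 6760 ± 1140 FPKM in WT cotyledons. PORA ran the other way, with 72.9 ± 27.2 FPKM in pifq hooks and 206 ± 21.7 FPKM in pifq cotyledons, against 475 ± 168 FPKM in WT hooks and 1580 ± 94.3 FPKM in WT cotyledons. RBCS2B averaged 754 ± 229 FPKM in pifq hooks, against 1020 ± 290 FPKM in WT hooks, a gap close to the SDs. A p that misses the threshold does not show that the genotypes have equal steps.

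**Figure D5:**
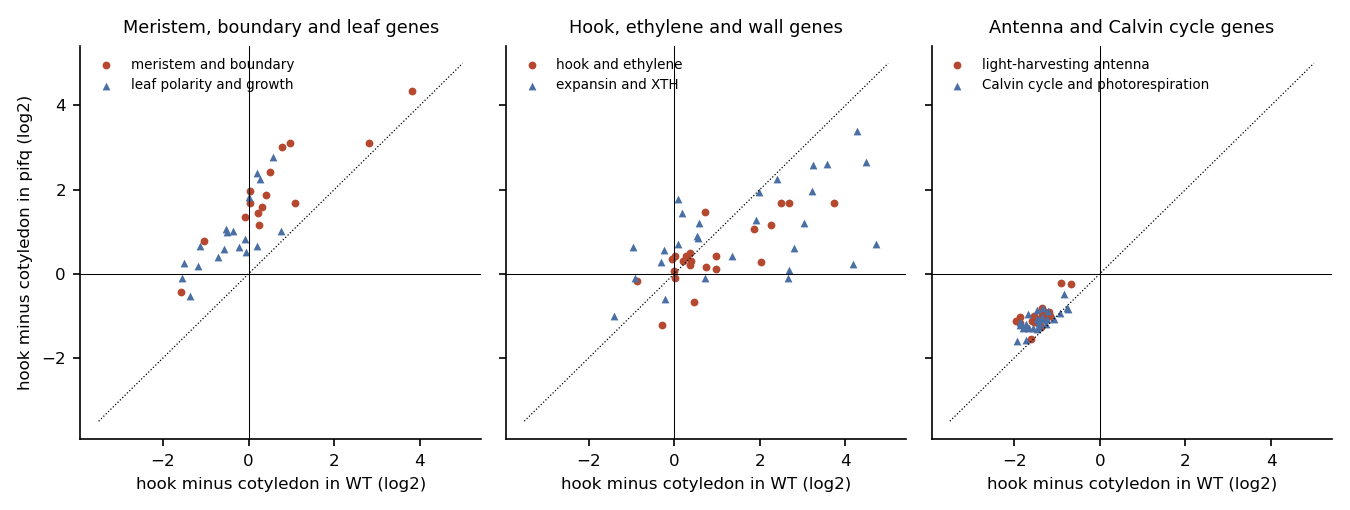
Log2 difference of FPKM + 1, hook minus cotyledon, in pifq (vertical axis) and in WT (horizontal axis), 1 point per gene, with the line of equal differences dotted. Meristem and leaf genes lie mostly above the line (left), many hook, ethylene and wall genes below it (middle), and antenna and Calvin cycle genes close to it (right).

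Some genes turned round between the genotypes. AT3G54830, an amino acid transporter family gene, gave 11.2, 8.18 and 11.5 FPKM in pifq hooks, against 28.6, 28.7 and 27.9 FPKM in pifq cotyledons, while WT averaged 118 ± 18.9 FPKM in hooks and 6.62 ± 5.36 FPKM in cotyledons. CYSD2, a cysteine synthase, gave 12.2, 9.06 and 8.14 FPKM in pifq hooks, against 27.1, 28.5 and 22.3 FPKM in pifq cotyledons, and 12 ± 0.472 FPKM against 2.76 ± 0.107 FPKM in WT. Both were lower in pifq hooks and higher in WT hooks than in the matching cotyledons, by -1.39 and -1.33 in pifq and 4.21 and 1.79 in WT. AT5G42530, of unknown function, ran the other way, with 3.27 in pifq and -1.02 in WT. CSY3, a peroxisomal citrate synthase, was higher in pifq hooks as deposited alone and lower in WT hooks.

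The most abundant nuclear transcripts differed between the organs mainly in photosynthesis. In pifq cotyledons the 5 highest were LHCB1.3, RBCS1A, LHCB1.4, LHCB1.1 and RBCS3B. In pifq hooks LHCB1.3, RBCS1A and LHCB1.4 were joined by PYK10, a beta-glucosidase of endoplasmic reticulum bodies, and TIP1;2, an aquaporin of the vacuole. PYK10 gave 2680, 3370 and 2840 FPKM in hooks, against 2120, 1900 and 1920 FPKM in cotyledons, and TIP1;2 2610, 3200 and 2490 FPKM against 2330, 2390 and 2190 FPKM. Neither was called on both scales.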

How the data were processed

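RNA was sequenced from 18 libraries of organs of dark-grown seedlings, 3 per group. The authors deposited 1 value per gene and library, and no header names the unit. The deposited values were read as FPKM (fragments per kilobase of exon, scaled to library depth), since multiplied by merged exon length of the RefSeq TAIR10.1 annotation they fell on whole multiples of a single read for 99.37% to 99.5% of values under 100 reads, within 0.05 reads. TAIR10, DESeq2 and HISAT2 are named per the submitters' processing notes, without versions or roles. Per the labels' protocols the library kit does not mark strand, so genes and antisense partners cannot be told apart.

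Groups came from the sample labels. Genes with at least 1 FPKM in 3 of the 6 pifq hook and cotyledon libraries were tested with limma 3.58.1 in R 4.3.3, with a mean-variance trend, on log2(FPKM + 1), in 1 fit of 6 group means over all 18 libraries. P-values were adjusted over 17388 genes by the Benjamini-Hochberg method, and all adjusted p-values in the text come from this fit or its stated alternatives. The scale understates the change of low genes. The organ difference is hook minus cotyledon in pifq minus the same in WT. Median-ratio factors were computed from FPKM over genes above 1 FPKM in all 18 libraries. Deviations of same-numbered hook and cotyledon libraries from their group means correlated at -0.113, 0.157 and 0.145. Such weak values cannot settle whether the numbers pair the samples, and the fit took them as unpaired.

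The 33 gene lists, with 651 members, and the comparison itself were chosen with earlier results of these data known, and the phosphate list and the TGTCTC motif after these values were seen. Genes were named by rule: 11 regulators of light and hook growth, the 12 steepest rises and falls without overlap and with at least 10 FPKM, up to 3 rises and 3 falls of each list, the 8 largest and 8 smallest organ differences between genotypes, up to 6 genes of opposite direction in pifq and WT, and the 5 most abundant genes of each organ. Other list members were chosen after their values were seen. Some items are not reported here. The test was checked on simulated data.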

Additional observations from a re-analysis of the deposited data

Results flagged for a closer look

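The hook minus cotyledon difference was not the same in the genotypes. Limma's test of the difference itself found its signed value larger in pifq than in WT for 5835 genes and smaller for 1925. Among genes with at least 10 FPKM in a pifq organ and no overlap between the pifq organs, the larger values, as pifq minus WT on the log2 scale, were 4.29 for AT5G42530, 3.62 for the methyltransferase gene AT5G38020, 3.37 for BGLU18, a beta-glucosidase, 3.21 for the thioesterase gene AT1G35290, 3.11 for the lipid-transfer protein gene AT1G62500, 2.97 and 2.86 for the RNAs AT2G04965 and AT3G01295, and 2.96 for CYP78A5. BGLU18 gave 63, 70.2 and 52.3 FPKM in pifq hooks, against 8.12, 5.65 and 2.35 FPKM in pifq cotyledons, while WT hooks and cotyledons averaged 0.801 ± 0.35 and 0.735 ± 0.193 FPKM (SD, n = 3).

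The smaller values were -5.6 for AT3G54830, -4.18 for IAA17, -4.0 for EXPA8, -3.29 for AT1G78230, -3.22 for AT3G16670, -3.18 for AT4G30410, -3.16 for AT2G41090, a calcium-binding EF-hand gene, and -3.12 for CYSD2. IAA17, an Aux/IAA repressor, averaged 33.5 ± 23 FPKM in pifq hooks and 13.3 ± 0.91 FPKM in pifq cotyledons, against 175 ± 27.8 FPKM in WT hooks and 5.45 ± 5.96 FPKM in WT cotyledons, and its value became -3.44 without WT cotyledon replicate 2 and -4.93 without WT cotyledon replicate 3. Of genes that ran in opposite directions in the genotypes, AT5G02540 stood at -3.05, MIR163 at -2.99 and NHL1 at -2.9. NHL1 gave 4.28, 4.55 and 3.51 FPKM in pifq hooks, against 13.6, 12.5 and 14.5 FPKM in pifq cotyledons, and averaged 7.2 ± 1.22 FPKM in WT hooks and 2.19 ± 0.892 FPKM in WT cotyledons.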

How the results depend on the processing

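Median-ratio scaling was the alternative that moved the main counts by over 1.5 times, to 4226 higher and 4776 lower in pifq hooks, and to 2898 larger and 3809 smaller organ differences. Of the genes named by rule it turned 3, AIM1 to -0.17, CSY3 to -0.05 and SCR to -0.10, against 0.29, 0.41 and 0.36 as deposited, none of these 3 called after scaling. Other genes of the text changed sign too, as UVR8 to -0.26, called lower, and ETR1 to -0.12, not called. Leaving out each library in turn gave 8957 to 9762 higher, 1738 to 2234 lower, 5059 to 5812 larger and 1654 to 2038 smaller. The replicate block gave 9984 higher, 2190 lower, 5742 larger and 1873 smaller. It is given here alone, since whether the replicate numbers pair the samples is not known. A pseudocount of 0.1, no filter, at least 5 FPKM, the 6 compared libraries alone, removal of organelle entries, array weights and limma-voom on recovered reads (10156 higher and 2257 lower) kept these counts within 1.5 times. Of 179 genes named by rule, 9 lost their call without hook replicate 2. Depth of a single read bounds levels well under 1 FPKM, and list members below the filter were not tested.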

Other observations

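Some list members did not reach 1 FPKM in 3 of the 6 libraries and were not tested. CASP1, a protein of the Casparian strip of the root endodermis, gave 0.987, 23.9 and 0.061 FPKM in pifq hook replicates 1, 2 and 3, against 0.441, 0.771 and 2.05 FPKM in pifq cotyledons, and 151 to 171 FPKM in pifq hypocotyls. Its level in the hook thus stood on replicate 2. VSP1, a vegetative storage protein, gave 1.29, 2.36 and 0.577 FPKM in pifq hooks, against 0, 0 and 0.0365 FPKM in pifq cotyledons, and 11.5 to 14.7 FPKM in pifq hypocotyls. GUN4, of chlorophyll synthesis, averaged 0.169 FPKM in pifq hooks and 0.102 FPKM in pifq cotyledons.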
